A study of Mus musculus with 108 samples.

Results

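The strongest reporter gate was compared with the silent one across blood specification from mouse embryonic stem cells. The libraries titled High and Negative in replicates 1 to 4 were taken at all 5 stages, which gave 40 of the 108 libraries of the series (95 of them from sorted cells) and 20 pairs of the same stage and replicate. All cells were HM-1 mouse embryonic stem cells, or their progeny, that carried open chromatin fragments in front of a minimal HSP68 promoter and the Venus-YFP gene, integrated at the Hprt locus. Every group carried such an insert, the Negative cells included, and the gates were set by YFP brightness. The lists of a pair could also differ as libraries, as described below for some of them. The stages were undifferentiated cells (ES), FLK1+ hemangioblast (HB), hemogenic endothelium that was KIT+ TIE2+ CD41- (HE1) or KIT+ TIE2+ CD41+ (HE2), and KIT+ TIE2- CD41+ hematopoietic progenitors (HP). The fragments tested at a stage came from open chromatin of that stage, so the stages differ in cells and can differ in inserts. They did not differ in all inserts. The H2al2a fragment printed below was in 5 High lists, and each stage has 4, so it was listed at more than 1 stage. A list held each recovered fragment once, with no number of reads, so how strongly a fragment was represented within a gate was not seen, and the lists hold nothing by which the gate or cell type on a label could be checked. Whether the replicates were separate transfections or repeated differentiations of 1 cell pool was not settled from the labels, and p-values then measure only the spread between these lists, which may be technical.

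A minimal promoter gives little transcription on its own, and an insert that binds transcription factors can raise it. Promoter fragments bring their own start site, often within a CpG island, whereas distal fragments can act as enhancers. Tn5, the transposase that releases the fragments, cuts between bound proteins, so the shortest fragments tend to come from stretches without a nucleosome and fragments of intermediate length tend to span 1 nucleosome. An integrated fragment that stays silent gives a cell of the Negative gate, and cells can also fall there when the cassette itself is silenced.

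The lists differed widely in size, from 505 to 131036 fragments. Replicates 1 and 2 gave 23322 to 131036 fragments and replicates 3 and 4 gave 505 to 18728. The High list was the larger in 11 pairs and the smaller in 9, with means of 34091 ± 37035 (SD, n = 20) against 25955 ± 30290 fragments, and the log2 ratio of sizes was -0.14 on average (permutation test over 20 pairs, p = 0.66). In the tests of single loci, in presence and in the number of distinct loci, the larger list of a pair was brought to the size of the smaller by the exact expectation over all draws. Counts of lists with a fragment, shares of fragments and lengths within loci are at full list size. Fragments that overlapped were merged into loci, and the 40 libraries hit 49461 distal and 16987 promoter loci, a promoter locus lying within 1.5 kb of an annotated start. In replicate 3, 3 Negative lists stood apart, in that only 13.6% (HE1), 27.8% (HP) and 45.6% (HE2) of their fragments were identical to a fragment of the plasmid lists, against 55.4% or more in all other lists of the 40, and their fragments were also long. Values without replicate 3 are given where they move a result.

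The fragments below show what the 2 gates held at the loci whose listing differed most in 1 direction at all 5 stages. They are shown because they are inserts as they stood in the reporter, and the values of their loci follow further down. Each is the fragment of at most 300 bp that was listed in most of the 40 libraries at that locus, on the plus strand of mm10. Capitals mark matches, on either strand, to the searched motifs of 5 or more letters. The letters of some of these motifs are given with the motif results, and those of the others are not listed. The first 5 lie at loci listed more often in High, and the last 2 at loci listed more often in Negative.
H2al2a distal: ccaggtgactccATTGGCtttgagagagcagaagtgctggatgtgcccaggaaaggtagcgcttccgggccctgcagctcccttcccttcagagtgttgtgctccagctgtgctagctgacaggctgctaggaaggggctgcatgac
Hnrnpa3 distal: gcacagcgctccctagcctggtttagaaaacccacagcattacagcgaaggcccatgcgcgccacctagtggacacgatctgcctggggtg
Acsl6 promoter: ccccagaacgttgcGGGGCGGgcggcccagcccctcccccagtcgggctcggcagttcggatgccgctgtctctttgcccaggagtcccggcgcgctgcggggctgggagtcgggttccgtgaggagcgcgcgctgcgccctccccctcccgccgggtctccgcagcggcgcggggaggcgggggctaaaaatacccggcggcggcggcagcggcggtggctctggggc
Trmt12 promoter: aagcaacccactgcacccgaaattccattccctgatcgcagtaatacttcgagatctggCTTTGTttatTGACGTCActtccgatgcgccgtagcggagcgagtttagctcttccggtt
4930544D05Rik promoter: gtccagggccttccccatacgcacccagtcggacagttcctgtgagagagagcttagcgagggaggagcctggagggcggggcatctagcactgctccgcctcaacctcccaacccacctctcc
Klf6 distal: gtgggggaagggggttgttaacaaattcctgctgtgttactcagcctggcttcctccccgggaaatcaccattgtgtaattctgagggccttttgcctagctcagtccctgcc
Ghrh distal: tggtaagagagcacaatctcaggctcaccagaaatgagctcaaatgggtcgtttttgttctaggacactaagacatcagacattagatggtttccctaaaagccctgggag
The H2al2a fragment (chr2:17917585-17917731) was listed in 5 High and 0 Negative lists and holds 1 match to the NFY letters GCCAAT, which 6.63% of all 1343 distal fragments of 147 bp hold. The Hnrnpa3 fragment (chr2:75590353-75590443) was listed in 6 High lists and 1 Negative list, and none of the searched letters lay in it. The search took 1 fixed set of letters per motif, so sites of the same factors in other letters were not seen. The Acsl6 fragment (chr11:54304001-54304229; 4 High and 0 Negative lists) has the KLF/SP letters GGGGCGG, present in 34.4% of the 4318 promoter fragments of 229 bp. The Trmt12 fragment (chr15:58872559-58872677; 2 High lists and 1 Negative list) has the full CRE letters TGACGTCA, present in 2.45% of the 2574 promoter fragments of 119 bp, and the SOX letters ACAAAG, present in 4.12%. The 4930544D05Rik fragment (chr11:70615090-70615213) was listed in 5 High and 0 Negative lists. On the Negative side, the Klf6 fragment (chr13:5870425-5870537) was in 4 Negative lists and the Ghrh fragment (chr2:157341573-157341683) in 3, and each of these was in 0 High lists. Fragments of other loci named below were not printed. Among loci listed more often in Negative, those of Syt1 (KLF/SP, CTCF), Acad12 (GATA, RUNX), Gm44659 and Gm20484 (SOX) and Itm2a (GATA) held matches. Those of Gm12746 and Clic4 held none, like the Klf6 and Ghrh fragments. Among loci listed more often in High, those of Tamm41, Mdc1 and Cfap97d2 held matches and those of Rbm20 and 4930463O16Rik none. The printed fragments thus do not show how motifs were split between the gates.

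The clearest difference between the gates was fragment length. By stage mean, High lists held shorter fragments than Negative lists at all 5 stages, in distal and in promoter fragments alike. In HE2 this rested on replicate 3. In ES the median distal fragment measured 199, 188, 176 and 181 bp in High of replicates 1 to 4, against 213, 204, 191 and 216 bp in Negative. In HB the High medians were 199, 177, 154 and 180 bp and the Negative medians 203, 202, 190 and 220 bp. At both of these stages High was the shorter in every pair. In HE1 the High medians were 166, 170, 210 and 195 bp, and the Negative medians 175, 178, 343 and 231.5 bp. In HE2 they were 168, 166, 172 and 247 bp in High against 168, 174, 237.5 and 211.5 bp in Negative, so that replicate 1 was level and replicate 4 ran the other way. The HE2 differences of replicates 1 to 4 were 0, -8, -65.5 and 35.5 bp (exact permutation test, p = 0.75). For promoter medians they were 0, -3, -86.5 and 47 bp. Without replicate 3 the HE2 mean lay above 0 in both kinds. In HP the High medians were 145, 133, 200 and 206.5 bp, below the Negative medians of 170, 176, 321.5 and 214 bp in each pair. Over replicates the gates overlapped at every stage, and the difference lay within pairs.

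Over the 20 pairs the distal median was 181.6 ± 25.4 bp in High and 212.0 ± 46.1 bp in Negative (SD, n = 20), a difference of -30.3 bp that was lower in 18 pairs and higher in 1 (permutation test over pairs, adjusted p = 0.0028). The share of distal fragments under 150 bp, the length of a stretch free of nucleosomes, was 39.9 ± 8.59% in High and 30.4 ± 10.7% in Negative, higher by 9.45 percentage points and higher in 19 of 20 pairs (permutation test, adjusted p = 0.0014). Among promoter fragments the same share was 26.3 ± 7.53% against 19.8 ± 7.30%, a difference of 6.47 points in 19 of 20 pairs (adjusted p = 0.0028), and the median was 210.9 ± 21.6 against 232.8 ± 43.1 bp (-21.9 bp, lower in 17 pairs and higher in 1, adjusted p = 0.028). Distal fragments over 300 bp were 10.8 ± 6.34% of High and 18.6 ± 18.7% of Negative lists, which fell by 7.82 points (adjusted p = 0.028). These 5 measures and the CpG ratio of distal fragments described further down were the 6 of 16 library measures (37.5%) that passed, each with the same direction of the mean at all 5 stages. In HE2 the 5 length measures kept that direction only with replicate 3 included. The pairing mattered to these calls: with gates compared within stages but without pairing by replicate, the distal median and both shares under 150 bp had an adjusted p of 0.058.

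**Figure D1:**
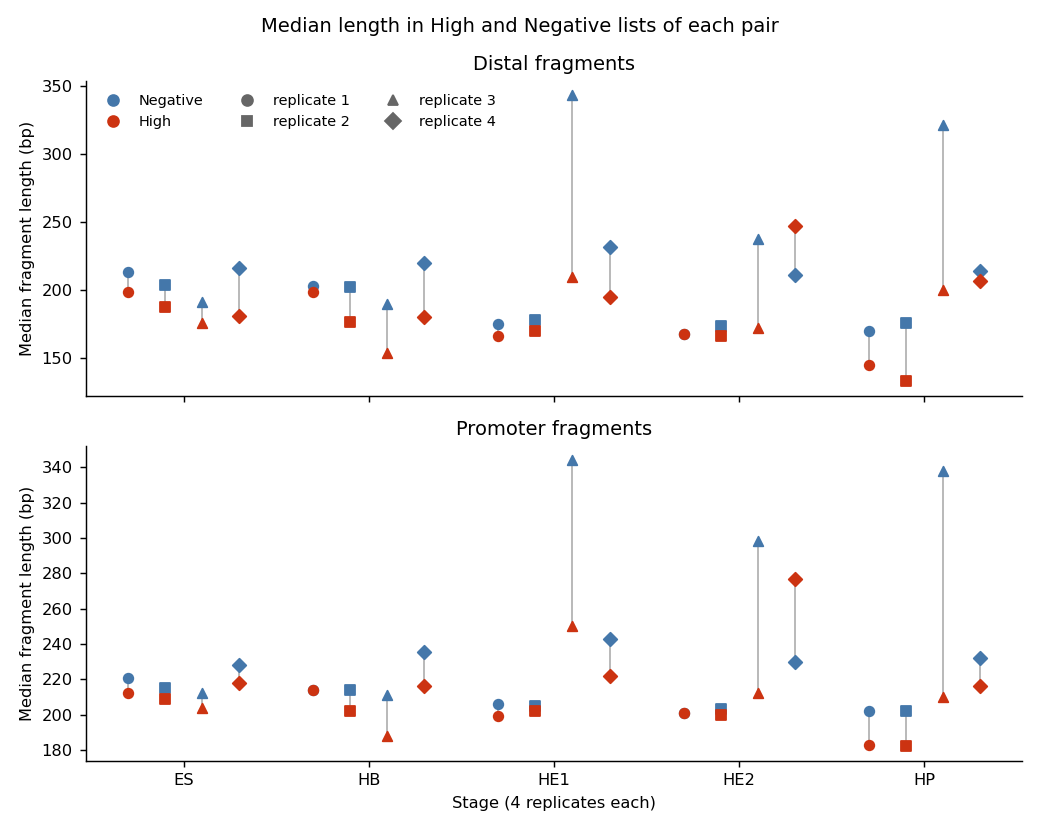
Median length in bp of distal (top) and promoter (bottom) fragments in the High and the Negative list of each of the 20 pairs, by stage, with a marker shape for each replicate and a grey line joining the lists of a pair. The High point lies below the Negative point in 18 distal and 17 promoter pairs, and the 3 widest gaps of each panel belong to replicate 3.

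Replicate 3 carried the widest gaps. The distal median differed by -10.4, -20.0, -74.2 and -16.7 bp in replicates 1 to 4, and the share of distal fragments under 150 bp by 4.46, 8.93, 16 and 8.40 points. Without replicate 3 the distal median still fell by 15.7 bp (adjusted p = 0.042), and the share under 150 bp rose by 7.26 points (adjusted p = 0.0075). The promoter median without replicate 3 differed by -6.57 bp and no longer passed (adjusted p = 0.30), and the distal share over 300 bp differed by -1.91 points (adjusted p = 0.21). In replicates 1 and 2 alone, where no list stood apart, the distal median fell by 15.2 bp and the promoter median by 7.9 bp (adjusted p = 0.0089 and 0.016). The share of fragments identical to a plasmid fragment moved with the gap, since it was 20.6 points higher in High than in Negative in replicate 3 and 1.04 to 1.98 points higher in the other replicates. Among plasmid-identical fragments alone the distal median fell by 21 bp (adjusted p = 0.0098). By list size the difference was -27.2 bp in the pairs with the larger High list and -34.1 bp in those with the smaller.

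The excess of High lay in the shortest fragments. Of distal fragments, 15.6 ± 3.96% in High and 10.7 ± 4.41% in Negative measured from 75 to under 100 bp, and 13.5 ± 2.62% against 10.8 ± 3.55% from 100 to under 125 bp (SD, n = 20). Around the length of a fragment with 1 nucleosome, from 200 to under 225 bp, the shares were 12.6 ± 1.86% and 12.9 ± 4.34%. Promoter fragments from 75 to under 100 bp made up 8.30 ± 2.88% of High and 5.75 ± 2.56% of Negative lists. In these bins under 125 bp the means of the Low and Medium lists lay between Negative and High. These bins are not given without replicate 3. The share of all distal fragments under 150 bp was then 32.5% in Negative and 32.2% in Low.

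**Figure D2:**
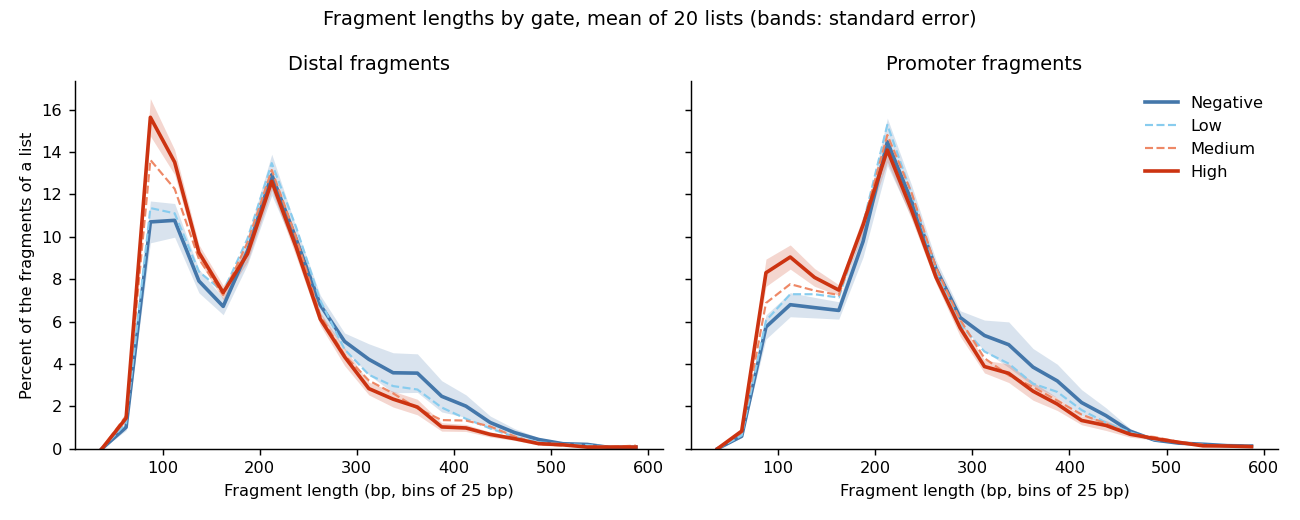
Percent of the distal (left) and promoter (right) fragments of a list in bins of 25 bp, as the mean of 20 lists for each of the gates Negative, Low, Medium and High, with the standard error as a band for High and Negative. High lies above the other gates from 75 to under 150 bp, with 15.6% against 10.7% of Negative distal fragments from 75 to under 100 bp.

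Short fragments could stand for other loci or for other pieces of the same loci. Where both lists of a pair hit a locus, the mean fragment length at that locus could be compared directly. Over these shared loci (20 to 12965 distal loci per pair) High fragments measured 203.1 bp and Negative fragments 214.2 bp, a difference of -11.0 ± 12.8 bp (SD of 20 pairs) that was lower in 16 pairs (permutation test, p = 0.00059). At shared promoter loci (70 to 11687 per pair) they measured 219.0 and 232.7 bp, which differed by -13.7 ± 18.8 bp and was lower in 18 pairs (permutation test, p = 0.00045). The wide gaps of replicate 3 entered here as well, and a pair with 20 shared loci counted as much as one with 12965. Without replicate 3 the differences were -7.12 ± 9.56 bp at distal and -6.00 ± 7.62 bp at promoter loci, lower in 11 and 13 of 15 pairs (exact permutation test, p = 0.011 and 0.0098). In replicates 1 and 2 alone, with 2305 or more shared loci in every pair, they were -7.66 and -6.63 bp (exact permutation test over 10 pairs, p = 0.023 and 0.018). Both settings were added after seeing the data.

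The means of the other gates lay between the extremes when all 4 replicates were taken. The mean distal median was 212.0 bp in Negative, 200.3 ± 36.7 bp in Low, 189.9 ± 26.9 bp in Medium and 181.6 bp in High, and the share of distal fragments under 150 bp was 30.4%, 32 ± 10.9%, 36.4 ± 9.53% and 39.9%. The promoter medians ran 232.8, 221.7 ± 30.1, 217.3 ± 20.2 and 210.9 bp. Low and Medium lists took no part in the choice of the pairs, and neighbouring gates differed by less than their SD over lists. Without replicate 3 this order was lost at its lower end, since the distal medians were then 197.1, 202.9, 190.1 and 181.4 bp and the promoter medians 216.8, 223.2, 217.1 and 210.2 bp in Negative, Low, Medium and High, with Low the longest. The distal shares under 150 bp were then 32.5, 32.2, 36.1 and 39.8%. The 5 lists of the pSKB plasmid, the reporter vector before integration, gave distal medians of 206 to 221 bp and promoter medians of 233 to 241 bp at the same loci, with 20.9% to 30.3% of distal fragments under 150 bp. The High means lay below these ranges in length. The Negative means lay within them or just below, but the middle Negative list (203.5 bp distal, 214.5 bp promoter) and the Negative means without replicate 3 lay below both ranges, and plasmid lists held far more fragments. The plasmid comparison was not tested. In replicate 5, where the brightest gate joined Medium and High, the distal median of Medium/High minus Negative was 30.5, -18, -59, -1 and 4 bp in ES, HB, HE1, HE2 and HP, a mean of -8.70 bp (exact permutation test over 5 pairs, p = 0.69, where the smallest p is 2 of 32). The direction was thus shared by 3 of 5 stages and the share under 150 bp by 2 of 5, in lists of 646 to 2986 fragments.

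**Figure D3:**
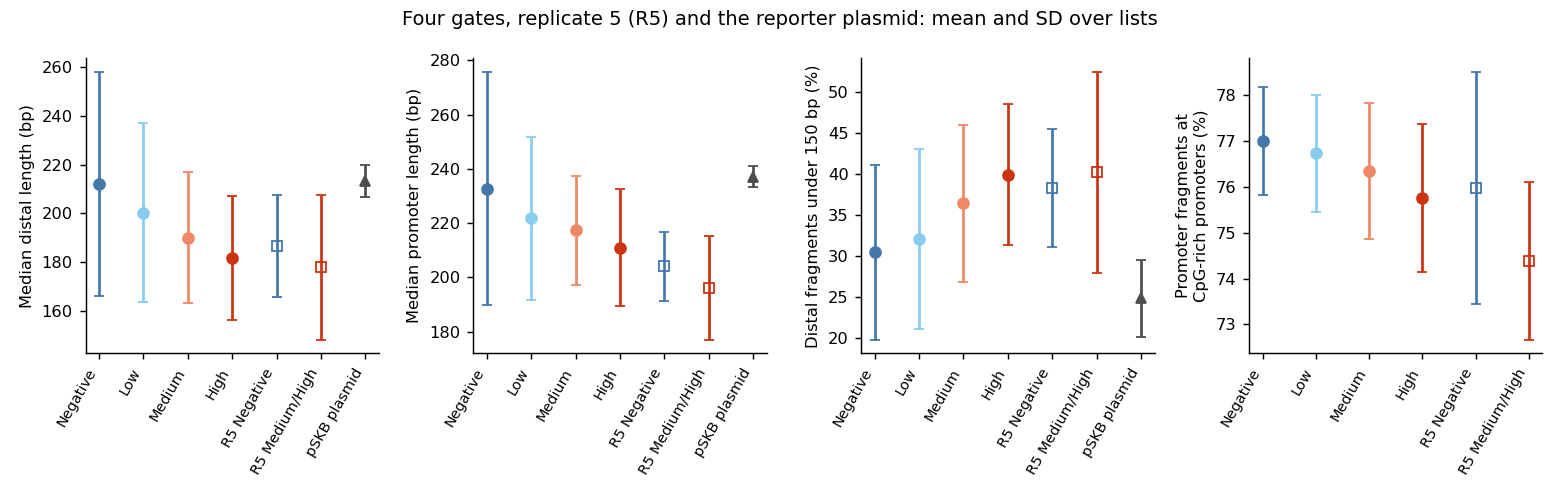
Mean and SD over lists of the median distal and promoter length (bp), the percent of distal fragments under 150 bp and the percent of promoter fragments at CpG-rich promoters, for the gates of replicates 1 to 4 (20 lists each), the Negative and Medium/High gates of replicate 5 (5 lists each, open squares, marked R5) and the pSKB plasmid (5 lists, triangles, first 3 panels). From Negative to High the mean distal median falls from 212.0 to 181.6 bp (197.1 to 181.4 bp without replicate 3, where Low lies above Negative at 202.9 bp), and the SDs of neighbouring gates overlap.

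The share of distal fragments was higher in 17 of 20 High lists but missed the threshold. It was 31.0 ± 3.98% in High and 28.9 ± 3.83% in Negative, a difference of 2.14 points (permutation test, adjusted p = 0.065), and ran the other way in HE2 (-0.91 points). Without replicate 3 the difference was 0.859 points (adjusted p = 0.56), and in replicates 1 and 2 alone it was 1.44 points and passed (adjusted p = 0.0089). The pSKB lists held 25.3% to 31.7% distal fragments at the same loci. GC content did not pass in either kind (distal 56.3 against 56.5%, promoter 66 against 66.1%; adjusted p = 0.20 and 0.60). The ratio of observed to expected CpG in distal fragments fell from 0.421 ± 0.036 in Negative to 0.407 ± 0.027 in High (-0.014, lower in 14 pairs, adjusted p = 0.042), and this lay in replicates 3 and 4 alone (-0.029), since in replicates 1 and 2 the difference was 4.9e-05. Plasmid-identical fragments made up 79.4 ± 10.3% of High and 73.2 ± 20.8% of Negative lists (adjusted p = 0.068), and 1.30 against 1.41% were identical to a fragment of the HM-1 control (adjusted p = 0.73).

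Of 67 classes of loci, 3 differed between the gates (4.48%), and these had the same direction at all 5 stages. Distal fragments close to genes were rarer in High. Of distal fragments, 43.7 ± 2.18% in High and 46.4 ± 3.33% in Negative lay under 10 kb from the nearest annotated start (-2.69 points, lower in 17 of 20 pairs, permutation test, adjusted p = 0.0018), and 43.8 ± 2.35% against 41.8 ± 1.80% lay 10 to 50 kb away (2.02 points, higher in 18 of 20, adjusted p = 0.0018). Promoter fragments at CpG-rich promoters, the broad promoters of widely expressed genes, made up 75.8 ± 1.61% of High and 77.0 ± 1.18% of Negative promoter fragments (-1.23 points, lower in 16 of 20, adjusted p = 0.0018). By stage the first class differed by -2.81, -1.08, -4.08, -1.94 and -3.54 points in ES, HB, HE1, HE2 and HP. The second differed by 1.80, 0.72, 4.28, 1.35 and 1.94 points, and the third by -0.85, -1.87, -1.07, -1.16 and -1.22 points. Within 1 stage the smallest p of the exact test is 2 of 16. The steepest part lay nearest the start. Distal fragments up to 3 kb away made up 17.6% of High and 19.5% of Negative distal fragments. Their share was higher in High in 2 of 20 pairs.

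**Figure D4:**
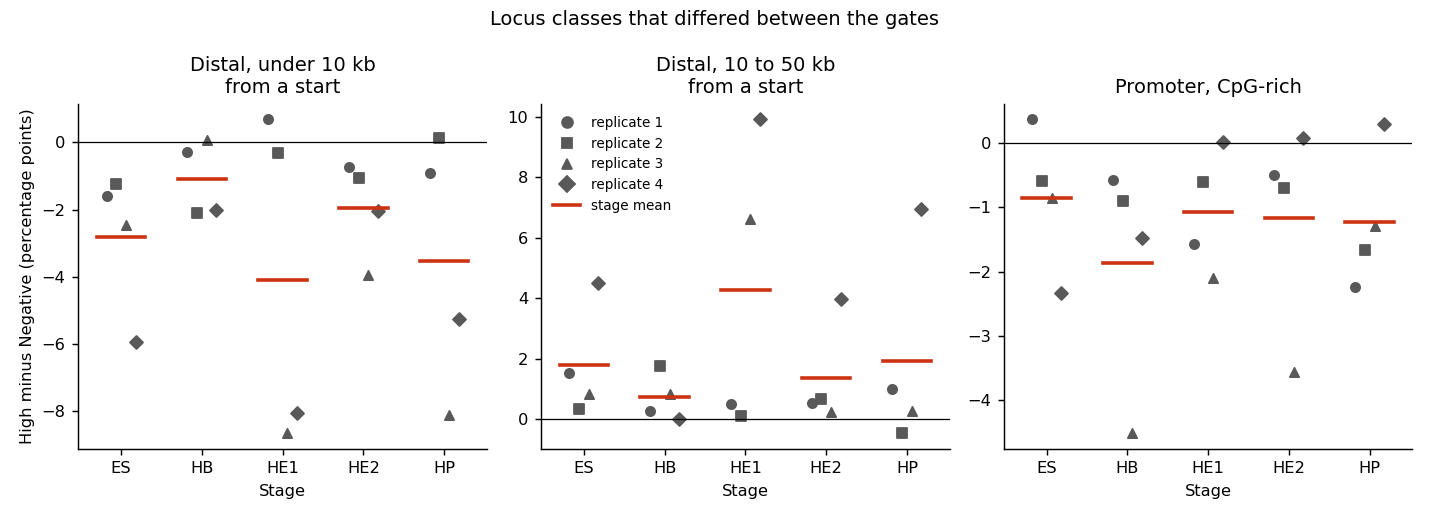
High minus Negative in percentage points for the 3 classes that passed, with 1 point per pair (marker shape by replicate) and a red bar for the mean of 4 pairs at each stage. All 5 stage means are below 0 for distal fragments under 10 kb from a start and for CpG-rich promoters, and above 0 for distal fragments 10 to 50 kb away, with most of the wide gaps in replicates 3 and 4.

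The calls of these classes depended on the setting. Without pairing by replicate none passed (adjusted p = 0.14, 0.14 and 0.15). All 3 passed without replicate 3 (-2.05, 2.10 and -0.82 points, adjusted p = 0.019, 0.019 and 0.035) and with pairs weighted by list size (-1.13, 0.93 and -1.10 points, adjusted p = 0.011, 0.0037 and 0.0037). CpG-rich promoters differed by -0.90, -0.89, -2.46 and -0.68 points in replicates 1 to 4. With both lists of a pair weighted to 1 length distribution, a setting chosen after seeing the data, the differences were -1.67, 1.17 and -0.44 points and none passed (adjusted p = 0.058, 0.58 and 0.66). In replicates 1 and 2 alone they were -0.74, 0.62 and -0.89 points (adjusted p = 0.14, 0.10 and 0.087), and among plasmid-identical fragments alone they were -1.71, 0.93 and -1.44 points, where none passed either. In replicate 5, CpG-rich promoters held 74.4% of Medium/High and 76.0% of Negative promoter fragments and were lower at 5 of 5 stages, at the smallest p that the exact permutation test over 5 pairs can give (2 of 32). The distance classes did not keep their direction there, with 0.18 points for fragments under 10 kb and -0.71 points for those at 10 to 50 kb.

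No class of named genes passed with all pairs. Each of 17 gene lists was counted apart for distal fragments, by the nearest start, and for promoter fragments. Promoters of the AP-1 and immediate early genes, whose products answer signals within minutes, held 0.170% of High and 0.240% of Negative promoter fragments (lower in 15 of 20 pairs, adjusted p = 0.11), and passed without replicate 2 (-0.10 points, lower in 13 of 15, adjusted p = 0.025). Distal fragments nearest to histone genes gave 0.0735 against 0.0353% (adjusted p = 0.35). Blood transcription factor genes, which drive the differentiation followed here, gave 0.189 against 0.171% of promoter and 0.260 against 0.297% of distal fragments (adjusted p = 0.93 for both), and endothelial genes 0.0870 against 0.102% and 0.264 against 0.276% (adjusted p = 0.93 and 0.95). Endothelial promoters passed as lower in High without replicate 3 (-0.038 points, lower in 13 of 15 pairs, adjusted p = 0.016), without the HE1 pairs (-0.027 points, adjusted p = 0.039) and without the HE1 and HP pairs of replicate 3 (-0.032 points, adjusted p = 0.0064). Cytosolic ribosomal protein promoters, among the most active of growing cells, gave 0.625 against 0.573% (adjusted p = 0.93). At an unadjusted p under 0.05, 3 of the 67 classes were higher and 4 lower, among them chromosome 8 (6.52 against 6.17%) and chromosome 5 (6.12 against 6.46%). Position in introns (48.5 against 48.1% of distal fragments), exons (10.8 against 11.4%) and between genes (40.8 against 40.4%) did not pass.

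Sequence motifs showed no difference that passed, 0 of 50 densities (0%), with 4 higher and 3 lower at an unadjusted p under 0.05. The letters were searched on both strands and counted per kb of listed sequence, so that the amount of sequence does not raise them. Densities at equal fragment length are not given here, and High fragments were the shorter. NFY (GCCAAT), bound by a factor of many active promoters, had 0.426 ± 0.058 matches per kb in High and 0.373 ± 0.080 in Negative distal fragments (higher in 17 of 20 pairs, permutation test, p = 0.0022, adjusted p = 0.11) and 0.885 against 0.846 per kb in promoter fragments (16 of 20, adjusted p = 0.21). CRE (TGACGTCA), the site of CREB and ATF factors, had 0.107 against 0.0950 per kb in promoter fragments (18 of 20, adjusted p = 0.12). CTCF (CAGGGGGC) had 0.244 against 0.213 per kb in distal fragments (17 of 20, adjusted p = 0.21). KLF/SP (GGGGCGG), a site of CpG islands, was the less dense in High distal fragments with 0.613 against 0.695 per kb (lower in 13 of 20, adjusted p = 0.21). TAL1 E-box letters (CAGATG), at 0.904 against 0.843 per kb of distal fragments, and AP-1 letters (TGANTCA), at 0.536 against 0.503, did not pass either (adjusted p = 0.40 and 0.55).

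Some motif calls appeared when pairs were not given equal weight. With pairs weighted by the square root of the smaller list, 5 densities passed and were higher in High (distal NFY and CTCF, promoter CRE, NFY and the letters of the OCT site). Without replicate 3, distal NFY alone passed, and without replicate 4, distal CTCF and promoter CRE and NFY. The percent of fragments with a match, which falls as fragments shorten, was lower in High for 3 (distal CG and KLF/SP, promoter RUNX). Counted without any choice of motif, 0 of 3772 words of 6 letters were called (0%; limma, smallest adjusted p 0.71), with 136 higher and 129 lower at an unadjusted p under 0.05. Among the words with the smallest p, ATTGGC, which is the reverse complement of the NFY letters, had 0.438 against 0.382 per kb of distal fragments (higher in 17 of 20 pairs), and CCCCCC was rarer in High with 0.877 against 1.05 per kb (higher in 3 of 20).

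No single locus was called, 0 of 21428 tested (0%; limma with the pair as a block, smallest adjusted p 0.61), of which 9447 were distal and 11981 promoter loci listed in 8 or more of the 40 libraries. At an unadjusted p under 0.05, 459 distal loci (4.86% of those tested) were higher and 246 (2.60%) lower. Of promoter loci, 414 (3.46%) were higher and 495 (4.13%) lower. The median standard error of a log2 difference was 0.12 for distal and 0.14 for promoter loci. Presence, the probability that a locus holds at least 1 fragment when both lists of a pair have the smaller size, was then compared stage by stage. Of 5250 distal loci with a fragment at every stage, presence was higher in High at all 5 stages for 213 (4.06%) and lower for 247 (4.7%). Of 10354 such promoter loci it was higher for 166 (1.6%) and lower for 1058 (10.2%). With distal and promoter fragments thinned apart, chosen after seeing the data, the promoter counts were 171 and 1007 and the distal counts 132 and 351. These counts moved widely when 1 replicate was left out. Distal loci higher in High ran from 43 (without replicate 1) to 200 (without replicate 4) and lower from 55 (without replicate 2) to 379 (without replicate 3). Promoter loci higher ran from 37 (without replicate 1) to 157 (without replicate 4) and lower from 270 (without replicate 2) to 2386 (without replicate 3). In replicates 3 and 4 alone 1 distal and 3 promoter loci were higher at all 5 stages and 14 and 61 lower. Signs of the summed differences were counted however small. The smaller list of a pair stood at full size, so its presence at a locus was 0 or 1. A locus with many fragments then had a presence of 1 there and just under 1 in the larger list. At such loci the sign follows which list was larger, so these counts do not tell gate from list size. Thinned lists held 5368 promoter loci in High and 5355 in Negative on average.

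The loci that stood furthest apart in presence were chosen for that difference and are described here with no test. The distal locus at chr6:115065887-115066493, 28.3 kb from the nearest start (Tamm41, which makes a mitochondrial lipid intermediate), was intergenic and had a fragment in 16 of 20 High and 8 of 20 Negative lists, with a presence of 0.67 ± 0.39 against 0.25 ± 0.37. It was listed in High of replicates 1, 2 and 4 at every stage, and of replicate 3 in HB alone. In Negative it was listed in replicate 4 at every stage but ES, in replicate 1 in HE1 and HE2, and in replicate 3 in ES and HP. The intergenic locus at chr19:53648634-53649161, 28.4 kb from Rbm20, a splicing regulator of heart muscle, was in 9 High and 0 Negative lists, all of them of replicates 1 and 2. It held 23 High fragments, from 1 to 6 per list where present. The H2al2a locus (chr2:17917365-17917910, intergenic, 79.3 kb from that histone variant gene) was in 9 High and 0 Negative lists with 19 fragments, and the Hnrnpa3 locus (chr2:75590190-75590620, intergenic, 68.9 kb from this RNA-binding protein gene) in 10 and 2. The locus over an exon 6.75 kb from the start of Mdc1, a DNA damage response gene (chr17:35847875-35848663), was in 9 High lists and 1 Negative list. A count of 0 in 20 Negative lists says that no fragment was listed, not that the locus was silent or absent from the cells.

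On the Negative side, the intronic locus at chr2:157341573-157341997, 4.36 kb from the start of Ghrh, the gene of growth hormone-releasing hormone, was in 1 High list and 9 Negative lists, with a presence of 0.016 against 0.42. The intergenic locus 9.13 kb from Klf6, which encodes a zinc finger factor (chr13:5870395-5870826), was also in 1 High list and 9 Negative lists. The loci nearest to Gm44659 (chr7:19876564-19877371; 1 and 9 lists), Gm12746 (chr4:106827511-106828362; 4 and 11) and Gm20484 (chr5:101365221-101365995; 1 and 8) lay 5.53, 20.0 and 234 kb from those starts. In each of these 5 loci most Negative lists with a fragment held 1 or 2.

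Among promoter loci, that of Acsl6, which activates long fatty acids (chr11:54303740-54304413), was in 13 High lists and 1 Negative list, with a presence of 0.50 ± 0.42 against 0.049 ± 0.22 and a log2 difference of 0.56 ± 0.12 (SE; limma adjusted p = 0.61). It was present in High at every stage, in 4 of 4 ES lists, and in Negative of HE1 replicate 1 alone. The promoter loci of Cfap97d2 (chr8:13705601-13706094; 11 and 1 lists), Trmt12, a gene of transfer RNA modification (chr15:58872559-58873303; 10 and 1, and level in HE1 at a presence of 0.25 in both gates), 4930463O16Rik (chr10:84488443-84488760; 9 and 0) and 4930544D05Rik (chr11:70614763-70615696; 9 and 1) followed. The last of these had a fragment in 2 Negative and 0 Medium/High lists of replicate 5, and none of the other 9 loci higher in High was listed in either gate of replicate 5. Of the 10 loci lower in High, Nfatc1 was in 1 Medium/High list and 0 Negative lists there and Itm2a in 1 of each, and the others in 0. Lower in High were the promoter loci of Nfatc1, a calcium-regulated transcription factor gene (8 High and 15 Negative lists), Clic4 (4 and 10), Acad12 (4 and 10), Syt1, the calcium sensor of synaptic vesicles (6 and 11), and Itm2a (9 and 15). Presence at the Nfatc1 promoter was 0.31 ± 0.42 in High and 0.67 ± 0.44 in Negative.

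**Figure D5:**
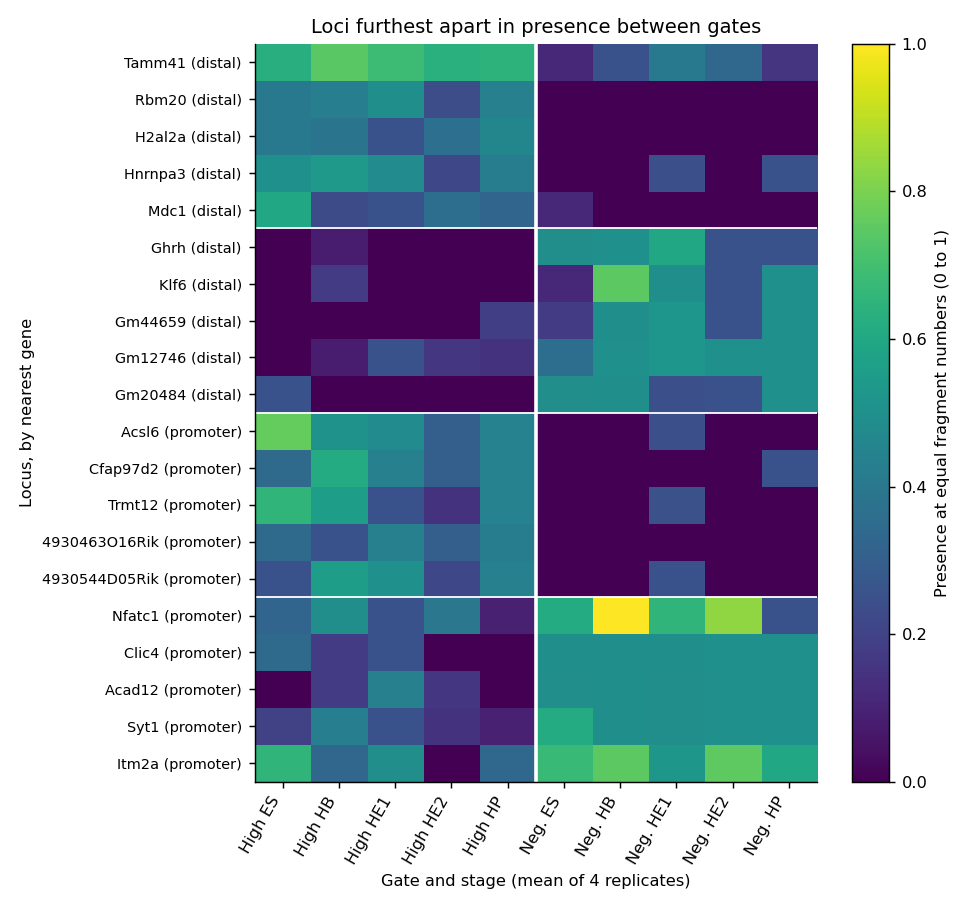
Mean presence (0 to 1) over the 4 replicates of a stage, at equal fragment numbers per pair, for the 20 loci furthest apart in 1 direction at all 5 stages (Trmt12 is level in HE1 at 0.25), with 5 per kind and direction, in the High (left) and Negative (right) lists of each stage. The Rbm20, H2al2a and 4930463O16Rik loci are at 0 in Negative at every stage; values near 0.5 mostly stand for a locus listed in replicates 1 and 2 and absent from the small lists of replicates 3 and 4.

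Of the loci of known regulators, looked up whatever their values, those tested showed no difference that passed. The locus in an intron 0.259 kb from a start of Runx1, the master regulator of blood emergence (chr16:92697249-92697926), was in 12 High and 12 Negative lists, with a presence of 0.51 in each. Tal1, an early blood and endothelial factor, was in 10 and 10 lists, Kdr, which encodes FLK1, in 10 and 11, and Spi1, which encodes PU.1, in 3 and 2. The Spi1 locus and a second locus at Runx1 (1 and 0 lists) were listed too rarely to be tested. The 2 loci at Fos were in 11 and 11 and in 5 and 5 lists. Hspa8, which encodes a constitutive chaperone, was in 13 High and 17 Negative lists with presences of 0.62 and 0.73 (log2 difference -0.27 ± 0.13 SE, limma adjusted p = 0.65). The study examined an element of Mecom, which encodes EVI1. The distal locus over that element (chr3:30353942-30354684, in an intron, 116 kb from the nearest start) was in 7 High and 5 Negative lists, with 12 fragments in each gate. The locus 1.12 kb from the start of Pou5f1, the gene of OCT4 (chr17:35504711-35505085), was in 6 High lists, 3 of ES and 3 of HB, and in 0 Negative lists. It too had too few lists to be tested.

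At equal fragment numbers High lists were spread over about as many loci as Negative lists, 10186 against 9891 on average (log2 ratio 0.016, higher in 14 of 20 pairs, permutation test, p = 0.52). The ratio was larger and passed in replicates 1 and 2 alone (0.043, adjusted p = 0.0089) and among plasmid-identical fragments (0.027, adjusted p = 0.0060). At equal fragment numbers, and not limited to plasmid-identical fragments, High lists held 4818 distal and 5368 promoter loci on average. Negative lists held 4537 and 5355. Loci that most lists share were rarer in High. These common loci were taken from the Low and Medium lists, as those listed in 20 or more of 40, a measure added after seeing the data. The 735 common distal loci held 17.6 ± 3.53% of High and 21 ± 4.90% of Negative distal fragments (-3.40 points, lower in 18 of 20 pairs, permutation test, adjusted p = 0.0022), and the 5406 common promoter loci 73.0 ± 3.67% against 74.4 ± 3.44% of promoter fragments (-1.37 points, lower in 17 of 20, adjusted p = 0.037). By replicate the distal difference was -0.50, -1.35, -7.74 and -4.01 points, so the large lists showed the least of it, and in replicate 5 it was 0.68 points.

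High and Negative lists of 1 pair had fragments in common. As a percentage of whichever list was smaller, a High list shared 13.5 ± 9.27% with Negative of its own replicate and 4.64 ± 3.00% with Negative of the other replicates at that stage, higher in 15 of 20 pairs by 8.84 points (permutation test, p = 0.00089). The share with its own list ran from 2.44 to 33.5%. It was 3.58% in ES replicate 1, where the other Negative lists gave 11.4%, and 33.5% in HE2 replicate 4, where they gave 2.64%. When replicates 1 and 2 alone were set against each other the difference was -2.05 points, and without replicate 4 it was 3.70 points. An identical fragment can thus be listed both in cells with the brightest reporter and in cells with none. Leaving out fragments listed in both gates of a pair gave a distal median that fell by 34.1 bp (adjusted p = 0.0020) and the 3 classes above with the same directions.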

How the data were processed

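Inserts were amplified from sorted cells and sequenced. According to the methods and labels, the authors joined 2 sequencing runs and trimmed reads with Trim Galore. They mapped them to mm10 with Bowtie2 2.3.5.1 at a mapping quality of 40 and removed duplicates. Filters against HM-1 control PCR, plasmid fragments and open chromatin are described, and fragments were split at 1.5 kb from starts. The described filter drops control fragments and keeps those with an exact plasmid counterpart. The lists used here do not meet it in full. Over the 95 sorted lists, 83.5% of entries had an exact plasmid counterpart. HM-1 control matches made up 1.30% of High and 1.41% of Negative lists on average. Why the lists depart from the filter was not tested. Sorted lists were deposited as intervals without a measured value, so no count model was used. For the plasmid and HM-1 control lists the authors deposited read counts per fragment, used here for membership and length only. Sequencing depth and PCR cycles per library were not used, since the lists do not carry them.

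Plasmid starts were moved by 1 bp to match. Fragments of all sorted lists were merged into loci and annotated with GENCODE M21 on the mm10 reference, from which sequences were read. A CpG-rich promoter had at least 55% GC and an observed over expected CpG of 0.6 within 500 bp of the start. Pair differences were tested by two-sided sign flips (100000 draws over 20 pairs, exact for fewer), with Benjamini-Hochberg adjustment over 16 library measures, 67 classes and 50 motif densities at 0.05. Loci, as the mean of log2(thinned fragments + 1) over all draws, and words, as log2 matches per kb with 0.5 added, were fitted with limma 3.58.1 with trend and pair as block. The values of adjusted p for loci and words are limma's. Tests were tried on simulated data. Named loci were up to 5 per kind and direction, filled by the largest presence difference of 1 sign at all 5 stages since none passed, plus 8 fixed promoter genes and the Mecom element. No promoter locus nearest to Nanog was found, and 1 fragment sequence is not reported here. The pairs, gene lists, motifs and named genes were chosen with earlier results of these data known. The replicate numbers as a pairing come from the labels: deviations of same-numbered High and Negative lists over loci correlated at 0.037 to 0.27 (median 0.14), over 0.1 in 12 of 20 pairs, and 16 of 20 correlated best with their own number. Alternatives left out each replicate, HE1, the pair block, fragments outside the plasmid lists or in both gates, or changed weights, filters and bins. Python 3.11.15, NumPy 2.4.6, SciPy 1.17.1 and R 4.3.3 were used.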

Additional observations from a re-analysis of the deposited data

Results flagged for a closer look

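In 50 groups of 4 pair differences, 4 had 1 pair far from the other 3, and chance flags about 1 in 20 groups. The distal median length in ES differed by -35 bp in replicate 4 and by -16, -15 and -14 bp in the other pairs. The promoter median length in HP differed by -128 bp in replicate 3 and by -20, -19 and -16 bp in the others, and the Negative list of that pair was among those with few plasmid-identical fragments (27.8%). The share of plasmid-identical fragments in HE2 was 25.8 points higher in High of replicate 3, against -2.57, 0.26 and 1.84 points in the others. Distal fragments 10 to 50 kb from a start in HE2 were 3.96 points higher in High of replicate 4, whose High list held 505 fragments, against 0.23, 0.54 and 0.67 points. Among the 16 library measures and the 3 classes that passed, no difference between stages had a p under 0.05 (smallest p 0.091, by permutation of stage names). Over all 133 measures, classes and motif densities 7 had an unadjusted p under 0.05 by the same permutation test, the smallest for promoters of TEAD and YAP genes (p = 0.0040), and none passed (smallest adjusted p 0.53).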

How the results depend on the processing

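The numbers 1 to 4 recur in both gates, and the pair was the block. With no replicate block the shares under 150 bp (9.45 points distal, 6.47 promoter) and the distal median (-30.3 bp) had adjusted p = 0.058, the promoter median (-21.9 bp) 0.18 and distal CpG (-0.014) 0.24, and 0 classes passed. The block changed no call of a locus or word, which were 0 with and without it. With whole replicates flipped the smallest p is 2 of 16 by an exact permutation test, so nothing could pass and 0 classes did, with the values just given. In replicates 3 and 4 alone no length measure passed (distal median -45.5 bp, promoter median -35.9 bp, distal under 150 bp 12.2 points), nor did distal CpG (-0.029), 0 classes passed, and distinct loci turned to -0.012. In replicates 1 and 2 alone 0 classes passed, the distal share (1.44 points) and distinct loci (0.043) passed, distal CpG turned to 4.9e-05 and shared fragments to -2.05 points. Leaving out each replicate gave 0.859 to 2.95 points for distal share (passing without replicate 4), -27.9 to -6.57 bp for the promoter median (passing only without replicate 4), -0.020 to -0.0090 for distal CpG (passing only without replicate 1), 1.44 to 7.97 points for plasmid matches (passing without replicate 4), 3.70 to 11.3 points for shared fragments, 0 to 3 motif densities, 80 to 357 loci higher and 325 to 2765 lower at all 5 stages. HM-1 matches were -0.36 without replicate 4, turned to 0.044 without replicate 1 and to 0.15 in replicates 3 and 4.
Without the HE1 pairs the promoter median was -19.6 bp and distal CpG -0.014, both no longer passing, 5 classes passed (chromosome 8 and endothelial promoters added) and 780 loci were higher at all 5 stages. Without the HE1 and HP pairs of replicate 3 the promoter median was -12.0 bp and distal CpG -0.0090, neither passing, and 381 loci were higher at all 5 stages (379 with all pairs). With pairs weighted by list size the distal share (1.84 points) and plasmid matches (2.84 points) passed, distal CpG (-0.0038) did not, and 5 motif densities passed. Plasmid-identical fragments alone gave a promoter median of -13.7 bp and distal CpG of -0.013, neither passing, distinct loci of 0.027, which passed, 0 classes and 243 loci higher. Weighted to 1 length distribution, 0 classes passed, distal CpG was -0.0064 and promoter GC turned to 0.084. The percent of fragments with a match gave 3 motif calls. At all 5 stages 4 loci were higher and 75 lower in replicates 3 and 4, and 3910 lower in replicates 1 and 2. The cause was not tested. Of 16 other settings for loci and 12 for words, 0 gave a call (limma). Distinct loci at equal numbers, shared fragments and the counts at all 5 stages were not run without the block. Small lists (505 fragments in the smallest) limit what single loci can show.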
